A study of Homo sapiens with 6 samples.

Results

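PML nuclear bodies are protein assemblies in the nucleus that are organised by PML and modified by SUMO, a small protein tag. The 6 genes described here are PML, which builds the scaffold of the bodies, SP100, SP110 and SP140L of the Speckled protein family, DAXX, a histone chaperone that the bodies recruit, and SAMHD1, an enzyme outside the bodies that degrades the building blocks of DNA. They were chosen by name, with earlier results of these data known, and all 6 were found among the 58174 genes of the files and were among the 16321 genes that passed the filter on low values. mRNA was sequenced in SiHa cells, an established human line from a cervical squamous cell carcinoma, 48 h after transient transfection with GV230-BRCA1, a plasmid for BRCA1 expression (3 samples, the OV-BRCA1 group), or with empty GV230 (3 samples, the NC group). Both groups thus received plasmid DNA and a lipid transfection reagent, no untransfected sample was analysed here, and the promoter of the plasmid is not given in the sources used here. The study calls the samples biological replicates, and whether they were separate cultures is not stated, so p-values measure only the spread between these samples.

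PML and SP100 are the founding components of the bodies, and both are known as interferon-stimulated genes that restrict viruses entering the nucleus. DAXX works with ATRX to place the histone variant H3.3 on silent chromatin and on viral genomes. SP110 and SP140L carry the same kinds of chromatin-reading domains as SP100. SAMHD1 hydrolyses deoxynucleoside triphosphates (dNTPs), limits retroviruses in non-dividing cells and is mutated in the inflammatory disorder Aicardi-Goutières syndrome.

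SP100 (ENSG00000067066, chromosome 2, 230415942 to 230544090, plus strand), SP110 (ENSG00000135899, chromosome 2, 230167293 to 230225729, minus strand) and SP140L (ENSG00000185404, chromosome 2, 230327184 to 230403732, plus strand) are neighbours in the GRCh38 genome, together with SP140. PML (ENSG00000140464) lies on chromosome 15 (73994673 to 74047812, plus strand), DAXX (ENSG00000204209) on chromosome 6 (33318558 to 33323016, minus strand) and SAMHD1 (ENSG00000101347) on chromosome 20 (36889773 to 36951901, minus strand). RefSeq promoters of GRCh38.p14, 250 bases before to 50 bases after a start site, were matched for SP100 and SP110 (2 start sites each), SP140L and SAMHD1 (1 each), and not for PML and DAXX. The promoters below are shown because the members of the chromosome 2 cluster moved in the same direction. The capitals mark the letters AAGTGAAA on either strand, a run of the kind bound by interferon regulatory factors, which was picked after the promoters had been read.
SP100, chr2:230415951-230416250, plus strand: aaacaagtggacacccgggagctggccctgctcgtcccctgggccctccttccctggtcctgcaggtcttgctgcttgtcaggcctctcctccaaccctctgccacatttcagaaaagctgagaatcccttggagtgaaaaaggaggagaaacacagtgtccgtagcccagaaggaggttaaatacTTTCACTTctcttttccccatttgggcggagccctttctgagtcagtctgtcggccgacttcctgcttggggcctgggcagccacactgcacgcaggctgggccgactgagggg
SP140L, chr2:230326943-230327242, plus strand: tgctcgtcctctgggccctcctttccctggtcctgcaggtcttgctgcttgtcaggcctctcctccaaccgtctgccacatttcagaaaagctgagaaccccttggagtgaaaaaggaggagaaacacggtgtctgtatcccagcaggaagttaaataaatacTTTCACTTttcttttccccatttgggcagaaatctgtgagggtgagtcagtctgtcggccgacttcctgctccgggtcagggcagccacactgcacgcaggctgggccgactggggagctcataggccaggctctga
SP110 first start site, chr2:230225587-230225886, minus strand: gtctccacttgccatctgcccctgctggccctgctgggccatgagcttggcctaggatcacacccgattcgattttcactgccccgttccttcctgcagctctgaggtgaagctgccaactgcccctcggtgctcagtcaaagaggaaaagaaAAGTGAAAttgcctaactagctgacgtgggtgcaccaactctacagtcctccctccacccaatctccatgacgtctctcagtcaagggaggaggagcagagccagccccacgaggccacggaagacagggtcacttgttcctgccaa
SP110 second start site, chr2:230219935-230220234, minus strand: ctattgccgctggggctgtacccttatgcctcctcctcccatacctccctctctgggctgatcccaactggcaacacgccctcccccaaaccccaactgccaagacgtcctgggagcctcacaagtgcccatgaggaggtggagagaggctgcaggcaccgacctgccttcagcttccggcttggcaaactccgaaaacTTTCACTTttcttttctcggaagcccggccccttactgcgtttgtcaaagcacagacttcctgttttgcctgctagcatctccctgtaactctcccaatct
SAMHD1, chr20:36951659-36951958, minus strand: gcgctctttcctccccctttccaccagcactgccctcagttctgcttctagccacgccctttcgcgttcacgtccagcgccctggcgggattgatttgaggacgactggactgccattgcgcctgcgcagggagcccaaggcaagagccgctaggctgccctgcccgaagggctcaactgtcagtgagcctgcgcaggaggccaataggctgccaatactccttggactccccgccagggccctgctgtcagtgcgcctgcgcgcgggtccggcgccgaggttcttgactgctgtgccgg

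The run was present in the promoter of SP100 shown, in that of SP140L and in both promoters of SP110. It was absent from the promoter of SAMHD1 and from that of the second SP100 start site, which is not shown, and 1.62% of 35116 RefSeq promoters held it. Read along the gene, its first base lay at position -64 from the start site in SP100, at -87 in SP140L, and at -97 and -51 from the first and second SP110 start sites. Of the SP110 transcripts, only SP110-215 reached the first of these SP110 start sites, and it was listed at 0 in every sample. The SP100 and SP140L promoters were identical at 251 of 272 aligned bases (92.3%), so their matches are not independent. SP140L and the second SP110 promoter shared an exact run of 18 bases, actttcacttttcttttc, around the marked letters. The core of the interferon-stimulated response element, 2 runs of GAAA with 2 free bases between them, was in none of the 6 member promoters and in 3.57% of all promoters (both strands). TTCNNNGAA, the element bound by STAT dimers, was in 1 of the 6, at position -38 from the second SP110 start site, and in 7.66% of all promoters. The letters are a description of these windows and not evidence of binding.

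The files hold no counts but FPKM, in which fragments are scaled for transcript length and sequencing depth. A gene value is the sum of its transcripts, and groups were compared with limma on log2(FPKM + 1), a scale on which the change of low genes is understated. A gene is said to have risen or fallen where its Benjamini-Hochberg adjusted p-value over all tested genes was below 0.05, and is called a DEG where its log2 fold change was also above 1 or below -1. The depth was estimated from the value of 1 fragment in 14216 genes with a single transcript at 14.1 to 16.5 M fragments for OV-BRCA1 samples and 16.01 to 20.4 M for NC samples. Only 32.3% to 37.9% of low values lay within 0.1 of a whole fragment, so whole reads were not recovered. The study also reports total reads per sample, which were not used for this estimate. The transfected gene itself, BRCA1, stood at 34.9 to 40.8 FPKM in the OV-BRCA1 group and 14.9 to 21.7 FPKM in the NC group. Mitochondrial transcripts held 14.8% to 17.2% of the summed FPKM in the OV-BRCA1 group and 21.0% to 23.2% in the NC group. Of 11 epithelial marker genes 8 were tested and 4 rose, among them KRT18 (log2 fold change 0.39), EPCAM (1.12) and KRT6A (0.84), KRT17 (-0.48) fell, and the squamous markers KRT5, KRT14 and TP63 were below the filter. The epithelial list summed to 1832 to 1972 FPKM in the OV-BRCA1 group against 2235 to 2322 FPKM in the NC group, and KRT17 held 1033 ± 90.3 against 1434 ± 8.67 FPKM (SD, n = 3 each). Of 14 leukocyte markers, PTPRC, CD3D and MS4A1 were among those listed at 0 in every sample. The leukocyte list summed to 35.9 to 41.1 FPKM against 23.4 to 24.9 FPKM, and its 3 tested genes were CD68 (log2 fold change 2.63), CD74 (2.06) and CD14 (-1.22). The part of these differences in the results below was not tested, and in bulk RNA a changed share of cells and a changed level per cell cannot be told apart.

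Of the 6 genes, 5 rose in the OV-BRCA1 group and none fell by limma, also at an unadjusted p-value below 0.05, whereas 16.4% of all tested genes rose and 18.9% fell. SAMHD1 rose most and SP110 next, and these 2 were upregulated DEGs, a class that held 2.89% of tested genes, while 1.1% were downregulated DEGs. PML, SP100 and SP140L rose by less. DAXX did not pass the test, whereas the study lists it among its downregulated DEGs. In 5 genes the lowest OV-BRCA1 value exceeded the highest NC value, as in 23.4% of tested genes (the groups were separate in either direction in 50.8%). For a single gene an exact two-sided permutation test cannot go below p = 0.1 with 3 samples against 3, and these 5 genes reached that value.

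**Figure D1:**
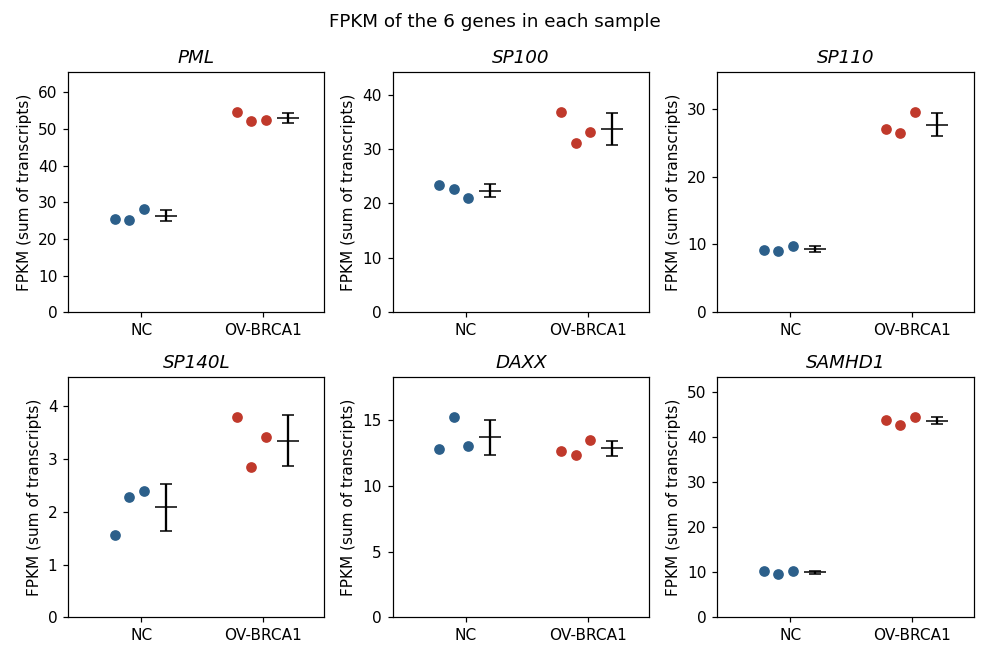
FPKM summed over transcripts (linear y axis from 0) for each of the 6 genes in the 3 NC samples (blue) and 3 OV-BRCA1 samples (red), with the mean and SD of each group in black. The groups are separate in every panel other than that of DAXX, and the gap is widest for SAMHD1, at 9.60 to 10.2 against 42.7 to 44.3 FPKM.

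PML encodes the scaffold protein that, once modified by SUMO, gathers the other proteins of the body. Its FPKM was 54.7, 52.1 and 52.5 in OV-BRCA1 replicates 1, 2 and 3 and 25.6, 25.3 and 28.1 in NC replicates 1, 2 and 3. The OV-BRCA1 samples lay close together and far above the NC samples. The means were 53.1 ± 1.40 and 26.3 ± 1.54 FPKM (SD, n = 3 each), a ratio of 2.02. The log2 fold change was 0.99 (SE 0.06, limma adjusted p = 1.07e-04), just under the fold change that defines a DEG, and 3.13% of tested genes had a larger one. Single samples moved it over that line, since it was 1.00105 when OV-BRCA1 replicate 2 was left out and 1.03 when NC replicate 3 was.

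SP100 encodes the Speckled protein that occupies the bodies together with PML and binds chromatin through its SAND domain. It stood at 36.8, 31.0 and 33.1 FPKM in OV-BRCA1 replicates 1, 2 and 3 and at 23.3, 22.7 and 21.1 FPKM in NC replicates 1, 2 and 3. All OV-BRCA1 samples were higher, although the SD of that group, 2.93 around a mean of 33.6, was larger than the NC SD of 1.17 around 22.4 (n = 3 each). The ratio of the means was 1.51 and the log2 fold change 0.57 (SE 0.08, limma adjusted p = 0.00279).

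SP110 encodes a Speckled protein whose loss causes hepatic veno-occlusive disease with immunodeficiency. Its FPKM was 27.0, 26.5 and 29.6 in OV-BRCA1 replicates 1, 2 and 3 against 9.12, 9.07 and 9.84 in NC replicates 1, 2 and 3. Within each group the samples agreed closely, and the groups were far apart. The means were 27.7 ± 1.64 and 9.34 ± 0.430 FPKM (SD, n = 3 each), a ratio of 2.97, and the log2 fold change was 1.47 (SE 0.07, limma adjusted p = 3.62e-05).

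SP140L, a paralogue of SP140 with little known function, was the lowest of the 6 genes. It stood at 3.79, 2.84 and 3.40 FPKM in OV-BRCA1 replicates 1, 2 and 3 and at 1.56, 2.28 and 2.39 FPKM in NC replicates 1, 2 and 3. The groups did not overlap, but the gap between them was narrow beside their spread. An estimated 55 to 104 fragments per sample stand behind these values, an estimate that covers counting error only. The log2 fold change was 0.50 (SE 0.14, limma adjusted p = 0.0385). This call needed nearly every sample, since leaving out OV-BRCA1 replicate 1 or 3 gave a limma adjusted p of 0.107 or 0.0978, and leaving out NC replicate 1, 2 or 3 gave 0.0820, 0.0639 or 0.0512. SP140, a leukocyte member of the family, stayed under the filter and was not tested. Its FPKM was 0.388, 0.472 and 0.322 in OV-BRCA1 replicates 1, 2 and 3 and 0.319, 0.260 and 0.0621 in NC replicates 1, 2 and 3.

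DAXX encodes the chaperone that delivers the H3.3 histone and is held in the bodies by SUMO-modified PML. Its FPKM was 12.7, 12.3 and 13.5 in OV-BRCA1 replicates 1, 2 and 3 and 12.8, 15.2 and 13.0 in NC replicates 1, 2 and 3. The groups overlapped, and NC replicate 2 was the highest sample. The log2 fold change was -0.08 (95% interval -0.29 to 0.12, limma adjusted p = 0.477). A rise of the size seen in SP140L or SP100 lies outside that interval. The study, which tested counts with DESeq, lists DAXX among its downregulated DEGs. Why the results differ was not tested. Within each sample, the DAXX FPKM was 0.232, 0.237 and 0.257 of the PML FPKM in OV-BRCA1 replicates 1, 2 and 3 and 0.502, 0.602 and 0.465 of it in NC replicates 1, 2 and 3. The log2 of this ratio differed by -1.10 between the groups (-2.05 ± 0.079 against -0.94 ± 0.192, SD, n = 3 each, exact two-sided permutation test, p = 0.1, the smallest possible).

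SAMHD1 showed the largest difference. Its FPKM was 43.7, 42.7 and 44.3 in OV-BRCA1 replicates 1, 2 and 3 and 10.2, 9.60 and 10.2 in NC replicates 1, 2 and 3. The spread within either group was small beside the gap. The means were 43.6 ± 0.828 and 10.0 ± 0.347 FPKM (SD, n = 3 each), a ratio of 4.36. The log2 fold change was 2.02 (SE 0.05, limma adjusted p = 4.63e-06), and 0.729% of tested genes had a larger one.

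**Figure D2:**
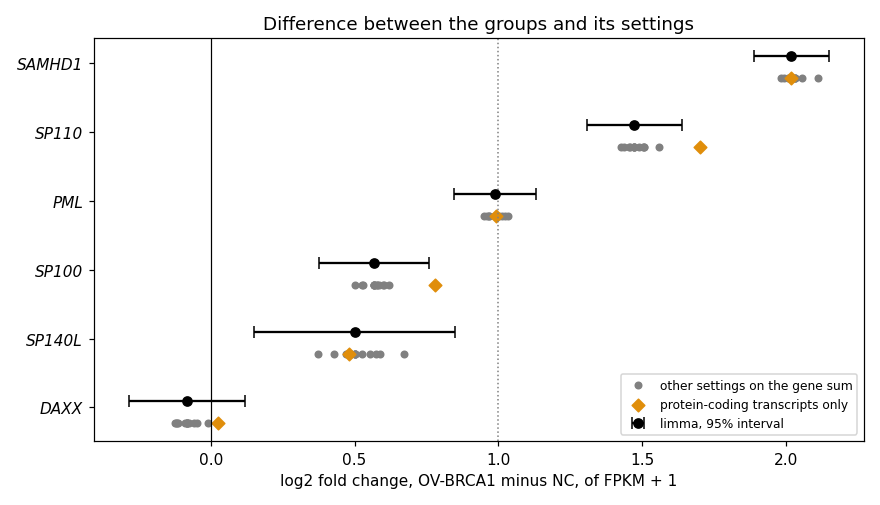
Log2 fold change of FPKM + 1, OV-BRCA1 minus NC, for each gene (x axis), with the 95% interval of limma in black, the other settings applied to the gene sum in grey and the sum of protein-coding transcripts as an orange diamond. The vertical line is at 0 and the dotted line at 1. The genes run from DAXX at -0.08 to SAMHD1 at 2.02, and the DAXX interval crosses 0.

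Because FPKM is per length, levels can be set side by side. In the NC group the order by mean FPKM was PML (26.3), SP100 (22.4), DAXX (13.7), SAMHD1 (10.0), SP110 (9.34) and SP140L (2.08). The samples of SAMHD1 and SP110 overlapped there, and those of the other neighbours in the order did not. In the OV-BRCA1 group the order was PML (53.1), SAMHD1 (43.6), SP100 (33.6), SP110 (27.7), DAXX (12.8) and SP140L (3.34), with no overlap between neighbours. SAMHD1 and SP110 thus passed DAXX, and SAMHD1 also passed SP100, whereas PML stayed the highest and SP140L the lowest of these gene sums. Summed over coding transcripts alone, SAMHD1 (43.6) stood above PML (35.7) in the OV-BRCA1 group, with no overlap. In the NC group the DAXX samples then overlapped those of both SP100 and SAMHD1.

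The mitochondrial share was smaller in every OV-BRCA1 sample. With each sample scaled by its nuclear coding genes only, the log2 fold change was 1.98 for SAMHD1, 1.44 for SP110, 0.95 for PML, 0.53 for SP100 and 0.47 for SP140L, and all 5 still passed the test. DAXX was at -0.12 on that scale.

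The files divide the 6 genes over 81 transcripts, 35 of which passed the filter as single transcripts. Of these, 4 rose and none fell (limma with Benjamini-Hochberg adjustment over 50925 transcripts), where 2.85% of all tested transcripts rose and 2.63% fell (5.47% in either direction). As DEGs, 1.46% of transcripts were upregulated and 0.866% downregulated. At an unadjusted p-value below 0.05, 11 were higher and 1 was lower. The share of all tested transcripts at that unadjusted threshold was not computed, so these counts have no baseline. The 4 that rose by adjusted p-value were SAMHD1-201, PML-212, PML-202 and SP100-202. SAMHD1-201 and PML-212 also passed when any single sample was left out, whereas PML-202 passed in none of those fits and SP100-202 only when NC replicate 2 was left out.

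SAMHD1 was carried by SAMHD1-201, the full-length coding transcript of 4334 bases, which held 93.9% to 99.1% of the gene's FPKM in every sample. It stood at 42.9 ± 0.515 against 9.61 ± 0.223 FPKM (SD, n = 3 each). The other SAMHD1 transcript was below the filter.

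The PML transcript with the highest mean was PML-212, a transcript with a retained intron (4620 bases), which is not annotated as coding. Its FPKM was 15.3, 15.8 and 15.5 in OV-BRCA1 replicates 1, 2 and 3 and 6.98, 6.62 and 6.80 in NC replicates 1, 2 and 3, a log2 fold change of 1.08. It held 28.0% to 30.3% of PML in the OV-BRCA1 group and 24.2% to 27.3% in the NC group. The coding transcripts PML-201 and PML-215 followed, and their estimates were unstable. In NC replicate 3 PML-201 stood at 0.0676 and PML-215 at 8.52 FPKM, whereas NC replicates 1 and 2 had PML-201 at 5.58 and 5.85 FPKM and PML-215 at 4.38 and 2.87 FPKM. Summed over coding transcripts alone, PML rose from 17.6 ± 2.34 to 35.7 ± 1.83 FPKM (SD, n = 3 each), or 0.99 as log2 fold change.

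SP100 was spread over 19 transcripts. SP100-202, the coding transcript with the most exons (29), stood at 4.72, 4.19 and 4.43 FPKM against 1.55, 2.24 and 1.28 FPKM and was the only SP100 transcript that rose (log2 fold change 1.03). SP100-203 and SP100-201 were higher in every OV-BRCA1 sample without passing the test (limma adjusted p = 0.136 and 0.0528). The retained-intron transcript SP100-214 ran from 2.55 to 4.48 FPKM in the OV-BRCA1 group and from 2.66 to 6.65 FPKM in the NC group, which overlapped. Summed over coding transcripts, the log2 fold change of SP100 was 0.78.

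In SP110 the estimates moved between coding transcripts from sample to sample. SP110-203 held 14.3 and 17.0 FPKM in OV-BRCA1 replicates 1 and 2 and was listed at 0 in the other 4 samples, while in OV-BRCA1 replicate 3 the value sat in SP110-202 (12.3 FPKM) and SP110-201 (5.63 FPKM). No SP110 transcript passed the test alone. The coding transcript SP110-204 stood at 1.02 ± 0.898 FPKM in the OV-BRCA1 group against 3.49 ± 3.11 FPKM in the NC group (SD, n = 3 each). The retained-intron transcripts SP110-213 (2.72 ± 0.834 against 1.13 ± 0.517 FPKM) and SP110-214 (3.35 ± 1.04 against 1.67 ± 0.219 FPKM) were higher in every OV-BRCA1 sample. The coding transcripts summed to 18.9, 20.0 and 19.3 FPKM in OV-BRCA1 replicates 1, 2 and 3 and to 5.32, 4.12 and 6.65 FPKM in NC replicates 1, 2 and 3, so the sum was steadier in the OV-BRCA1 group, and the log2 fold change was 1.70. In SP140L the leading transcript SP140L-204 stood at 1.53 ± 0.142 against 0.520 ± 0.291 FPKM (SD, n = 3 each), which did not pass the test (limma adjusted p = 0.0802). SP140L-203 stood at 0.832 ± 0.304 against 0.591 ± 0.210 FPKM (SD, n = 3 each) and did not pass either.

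DAXX showed the same instability among 3 coding transcripts of similar length (2606, 2613 and 2355 bases). The highest transcript was DAXX-203 in OV-BRCA1 replicates 1 and 3 and in NC replicate 1 (8.22, 9.80 and 6.98 FPKM), DAXX-202 in OV-BRCA1 replicate 2 (8.19 FPKM) and DAXX-201 in NC replicates 2 and 3 (8.52 and 9.11 FPKM). DAXX-201 was lower in every OV-BRCA1 sample, at 0.477, 1.65 and 0.837 FPKM against 2.08, 8.52 and 9.11 FPKM, but its adjusted p-value was 0.124 (limma with Benjamini-Hochberg adjustment). The coding transcripts summed to 11.4 ± 0.730 and 11.3 ± 1.35 FPKM (SD, n = 3 each).

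Whether the transcripts of a gene changed unequally was tested with limma's diffSplice. None of the 5 genes with at least 2 tested transcripts passed (adjusted p between 0.0926 for SP100 and 0.462 for SP110), whereas 8.49% of 9348 genes did. At an unadjusted p-value below 0.05 there were 3, SP100, PML and SP140L, but the share of all genes at that threshold was not computed.

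**Figure D3:**
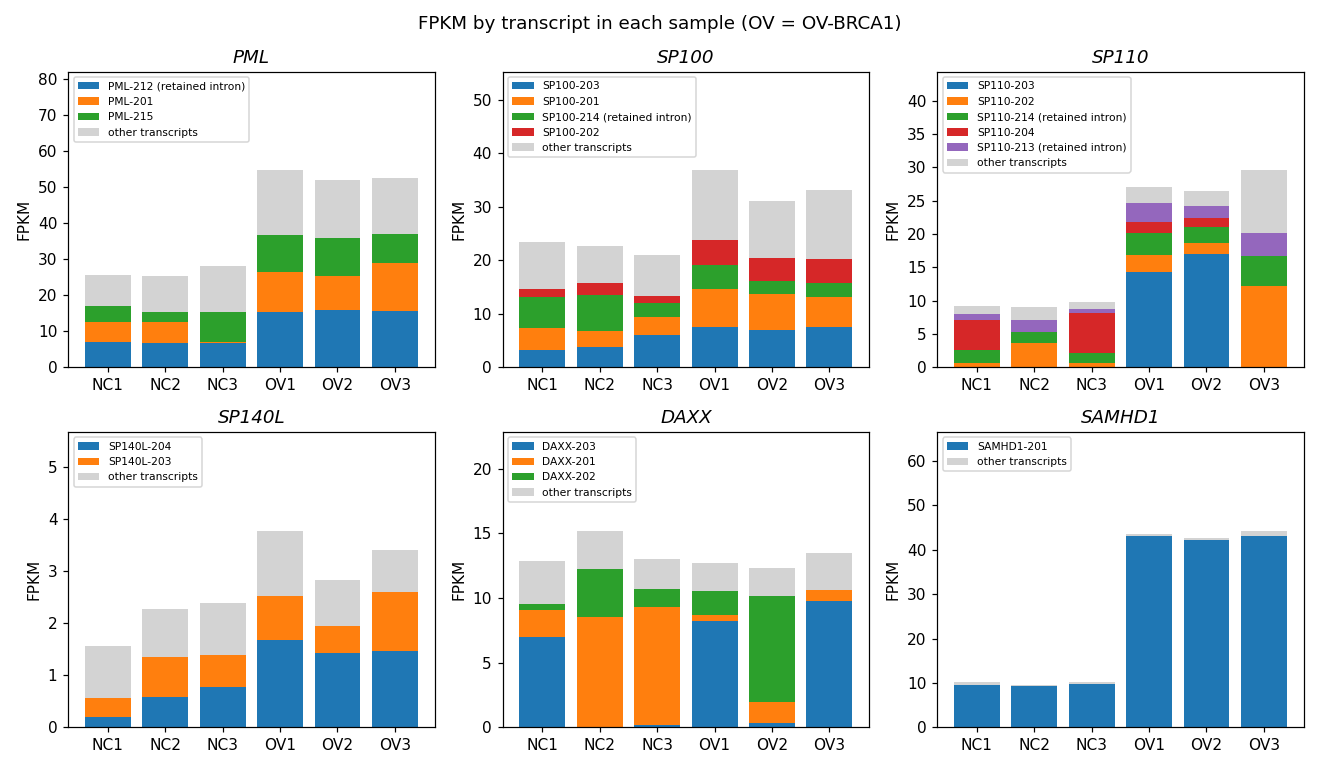
FPKM of each gene in each sample (linear y axis from 0), stacked by transcript for transcripts with at least 10% of the gene's mean FPKM, with the rest in grey. SAMHD1-201 leads in every sample and PML-212 is steady within groups, whereas the leading transcript changes between samples of both groups in SP110 and DAXX and between NC samples in PML, SP100 and SP140L.

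Other genes overlap or resemble the members, and whether the authors' quantification used the strand is not given in the sources used here. The 3′ part of SAMHD1 shares 1159 exon bases with TLDC2 on the opposite strand, and TLDC2 stood at 2.64 to 3.34 FPKM against 0.458 to 0.911 FPKM, low beside SAMHD1. SP110 shares 1262 exon bases with the antisense gene AC009950.1, which stayed at or under 0.704 FPKM. The pseudogene HMGB1P3 lies within SP100 on the same strand and shares 544 exon bases with it, all in SP100-201. Without SP100-201 the log2 fold change of SP100 was 0.50 (limma adjusted p = 0.00649). Of the 100-base words in SP100 transcripts, 3.38% also occurred in HMGB1P3, and 0% of those in PML, SP110, DAXX and SAMHD1 occurred in another gene. SP140L shared such words with SP140, so reads could be split there.

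The tested genes nearest to the members on the chromosome did not share one direction. Beside the chromosome 2 cluster, SLC16A14 (log2 fold change 0.90) rose, whereas RNY4P19 (0.29) did not pass the test, nor did RN7SL834P (0.18) and HMGB1P3 (0.92), which both lie within SP100. Beside SAMHD1, TLDC2 (1.31, limma adjusted p = 8.69e-04), which overlaps it, and RPN2 (0.25) rose, SOGA1 (-0.51) fell and RBL1 (-0.09) did not pass. Beside DAXX, KIFC1 (-1.06) and ZBTB22 (-0.33) fell, while TAPBP (0.09) and PHF1 (-0.20) did not pass. Beside PML, CYP11A1 (-0.41) fell and STOML1 (-0.18), LOXL1 (-0.06) and PPIAP46 (-0.18) did not pass.

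The genes whose profile over the 6 samples was nearest to a member were found by the Euclidean distance of mean-centred log2(FPKM + 1). For SAMHD1 these were OAS3 (distance 0.0781), RGS2 (0.132) and AC008736.1 (0.142), and for SP110 DNAJB9 (0.0963), HSD17B2 (0.103) and HLA-E (0.104). For PML they were LAMB3 (0.0881), PPIB (0.103) and IER3 (0.110), and for SP100 N4BP1 (0.0724), LINC01094 (0.112) and TSPAN5 (0.112). SP140L was nearest to LNCSRLR (0.0888), AC105250.1 (0.131) and TBL1XR1 (0.133), and DAXX to COL4A5 (0.0535), ADIRF-AS1 (0.0675) and MARCH9 (0.0746). With 2 groups of 3, these distances mostly restate the difference between the groups.

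Lists of related genes written from general knowledge were set beside the members, and their counts are read against 16.4% of tested genes that rose and 18.9% that fell. In the SUMO pathway, whose enzymes attach and remove the tag that assembles the bodies, 6 of 19 tested genes rose, 1 fell and 12 did not pass, with a median log2 fold change of 0.18 against -0.04 over all tested genes. When NC replicate 3 was left out 4 rose, and with nuclear coding scaling 2 fell. SUMO3, a SUMO modifier, rose from 74.0 ± 2.44 to 97.7 ± 2.65 FPKM (SD, n = 3 each). TOPORS, a ligase of SUMO and ubiquitin found at the bodies, rose by 0.40 on the log2 scale, and the SUMO ligase PIAS4 fell by 0.49.

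Around DAXX, 3 of 10 genes of H3.3 deposition rose and 3 fell, with a median of -0.04, but 1 rather than 3 fell with no filter on low values, and likewise when OV-BRCA1 replicate 3 or NC replicate 1 was left out. ATRX, the partner of DAXX, fell from 16.1 ± 1.37 to 11.0 ± 0.965 FPKM (SD, n = 3 each), or -0.51 as log2 fold change (limma adjusted p = 0.00729). UBN1, a subunit of the HIRA chaperone complex, rose by 0.83 on the log2 scale, and H3F3B, a gene that encodes H3.3, by 0.42. The other H3.3 gene, H3F3A, fell from 278 ± 9.15 to 211 ± 28.0 FPKM (SD, n = 3 each), or -0.40 on the log2 scale.

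Of 27 genes whose products visit the bodies, 26 were tested, 4 rose, 3 fell and 19 did not pass, with a median of 0.10. The only DEG was ISG20, an interferon-stimulated exonuclease, which stood at 39.1, 45.0 and 28.4 FPKM in the OV-BRCA1 group and 3.64, 2.96 and 4.01 FPKM in the NC group. The transcriptional corepressor SKI fell by 0.55 and the p53-induced gene TP53INP1 fell by 0.56 on the log2 scale.

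Of 18 enzymes that make or salvage dNTPs, the substrates of SAMHD1, 4 rose, 5 fell and 9 did not pass, with a median of -0.05 and no DEG. Cytidine deaminase (CDA) fell from 223 ± 1.46 to 143 ± 4.13 FPKM (SD, n = 3 each), while the nucleoside diphosphate kinase NME2 and the purine nucleoside phosphorylase PNP each rose by 0.36 on the log2 scale. CDK1, a kinase that phosphorylates SAMHD1 with cyclin A, fell by 0.39 on the log2 scale, the only gene of 3 tested in that list that passed. Of 7 listed genes of Aicardi-Goutières syndrome, a list that need not be complete, 3 rose, 1 fell (RNASEH2C, log2 fold change -0.36) and 3 did not pass. SAMHD1 was among those that rose, with IFIH1, the sensor of double-stranded RNA (log2 fold change 2.57), and ADAR, the RNA-editing enzyme (0.54). The interferon-response transcription factors IRF1 (log2 fold change 1.00), STAT2 (0.93) and IRF9 (0.72) rose as well.

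**Figure D4:**
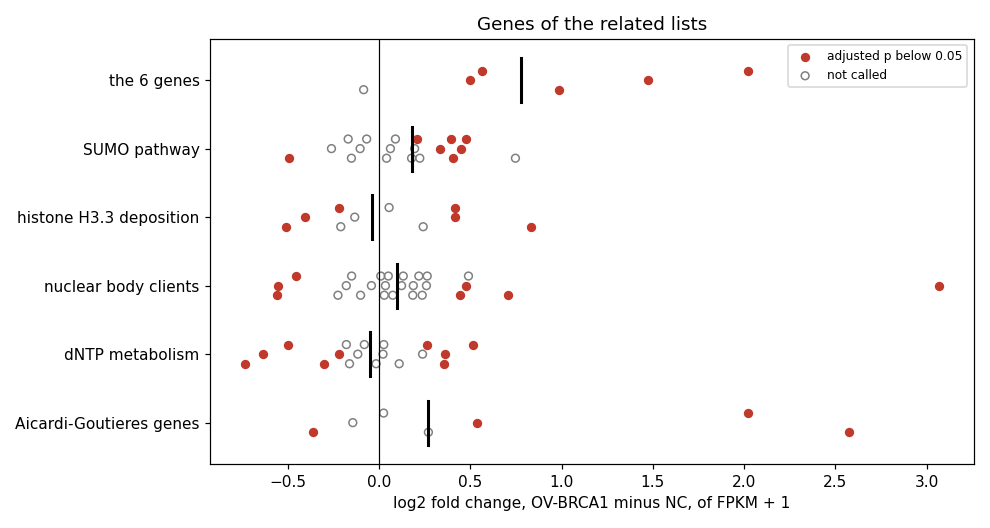
Log2 fold change of FPKM + 1, OV-BRCA1 minus NC (x axis), of every tested gene in the 6 members and in 5 lists of related genes, in red where the adjusted p-value was below 0.05 and as open circles otherwise, with black bars at the list medians. The median of the 6 members is 0.78, and those of the 5 lists drawn lie between -0.05 for dNTP metabolism and 0.27 for the Aicardi-Goutières genes, which include SAMHD1. The SAMHD1 kinase genes, at a median of -0.39, and the interferon-response factors, of which IRF9, STAT2 and IRF1 stood at 0.72 to 1.00, are not drawn.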

How the data were processed

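The samples were assigned to groups from the labels. The authors deposited FPKM per transcript made from quality-filtered reads. The submitters' processing notes list HISAT2, FastQC and hg38, while the quantification tool, its annotation and the use of strand are not given in the sources used here. Gene names came from GENCODE release 29, which held 198868 of 199167 transcripts, 98.7% of them at the same position. The authors tested counts with DESeq, which could not be repeated on FPKM.

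FPKM was summed per gene, and genes with at least 0.5 FPKM in at least 3 samples were compared on log2(FPKM + 1) with limma (trend, not robust), a test checked on simulated data. Single transcripts were treated alike, and diffSplice compared transcripts within genes. The members and the gene lists were chosen with earlier results of these data known. The named genes were all members and, of each list, DEGs and up to 3 genes with the smallest adjusted p-values, besides the 2 nearest tested genes on each side of a member, its 3 nearest profiles, and transcripts with at least 10% of its FPKM. PML-202, SP110-201, H3F3A and KRT17 were named after their values were seen. Some genes of the lists are not reported here. Alternatives were pseudocounts, filters, scalings, robust estimation, a replicate block, left-out samples, the leading transcript and coding transcripts alone. The sum without SP100-201 and the letters AAGTGAAA were chosen after seeing the data. R 4.3.3, limma 3.58.1 and Python 3.11.15 were used.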

Additional observations from a re-analysis of the deposited data

How the results depend on the processing

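SAMHD1, SP110 and PML kept their direction and their call in every alternative that gave a value, at log2 fold changes of 1.98 to 2.11, 1.43 to 1.70 and 0.95 to 1.08. SP100 lost its call only with the transcript of the highest mean FPKM (0.67, adjusted p = 0.0712 from limma), where 3 members rose instead of 5. SP140L lost it without a filter on low values (0.50, adjusted p = 0.0964 from limma) and ranged from 0.37 to 0.59 as samples were left out. DAXX changed sign with coding transcripts alone (0.024) and with its leading transcript (1.25), neither past the test, and the cause was not tested. With a pseudocount of 0.1 there were 764 upregulated and 516 downregulated DEGs over all genes, against 472 and 179, and PML was a DEG, as with median-of-ratios scaling (1.02). As samples were left out, 2 to 3 member transcripts rose, 0 to 1 fell (DAXX-201, without NC replicate 1) and 0 to 2 members passed the test of transcript use, of which SP100 passed with a mean FPKM of at least 2 (1 member). Without OV-BRCA1 replicate 1 that member was SP100, and without NC replicate 3 they were PML and SP100. The leading transcript of SP110 was below the filter and gave no fold change, and that of DAXX was listed at 0 in NC replicate 2 and gave no DAXX to PML ratio.

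Same-numbered samples did not deviate together (correlations of -0.0244, 0.0250 and 0.0136 across genes), so the numbers were not taken as pairs. With the replicate block SP140L did not pass (0.50, adjusted p = 0.0889 from limma), 1 member transcript (SAMHD1-201) and 4 SUMO pathway genes rose, and the genes that rose over all genes numbered 2159.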
